A study of Mus musculus with 4 samples.

Results

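MHC class I molecules show peptides from inside the cell to cytotoxic T cells. A polymorphic heavy chain, encoded in the mouse by the H2 genes, pairs with beta-2-microglobulin in the endoplasmic reticulum. The transporter TAP carries peptides in from the cytosol, and tapasin holds the empty heavy chain near TAP while it is loaded. Leukemic cells that lose these components are poorly seen by CD8+ T cells, which is why the pathway is of interest in tumour immunity.

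The 10 genes described here were taken by name: the classical heavy chain genes H2-K1 and H2-D1, the non-classical heavy chain genes H2-Q4, H2-Q6, H2-Q7 and H2-T23, the light chain gene B2m, the transporter genes Tap1 and Tap2, and the tapasin gene Tapbp. A site belonged to a gene where the gene was among the comma-separated transcript labels of its line in the deposited table. This gave 483 sites of the 506952 listed. The sites lay in 8 of the 10 genes. Of all protein-coding genes 34.2% had a site, and of those on the plus strand 51.4%.

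The study converted poly(A) RNA with bisulfite, which turns unmethylated cytosine into uracil and leaves 5-methylcytosine, and sequenced 4 libraries. Per the labels, 2 came from Tet2 KO and 2 from WT NRAS/AE9a leukemic cells, an acute myeloid leukemia (AML) line that carries NRAS and AE9a in both genotypes. TET2 is a dioxygenase that oxidises 5-methylcytosine. All cells grew in the growth factors SCF (50 ng/ml), IL-6 and IL-3 (10 ng/ml) under selection with puromycin (2 µg/ml) and G418 (1 mg/ml). The sources used here do not say how Tet2 was removed, whether the KO line was a clone, or whether replicates came from different cultures. Their spread may therefore be a technical one.

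The table used here lists positions called in the KO libraries; its name says that they are unique to KO. It has 0 columns with WT values and 0 columns of a single library, so KO was not compared with WT, and whether a listed position was absent from WT was not checked. The level of a site is the fraction of the reads used there that still showed cytosine. No listed site had a level under 0.2 or fewer than 10 covering reads, so a gene without a site is not shown to lack methylation.

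The labelled cell type was set against marker genes. Among all protein-coding genes 34.2% had at least 1 site. The share was 51.4% for plus-strand genes and 18.5% for minus-strand genes. Of 15 myeloid and AML markers 11 had a site, against 1 of 7 T and NK cell markers (Nkg7), 0 of 5 B cell markers and 1 of 5 dendritic cell markers (Itgax, which myeloid cells also express). RefSeq windows place 8 of the myeloid markers on the plus strand, all with a site, but only 4 T and NK, 1 B and 2 dendritic cell markers, so these counts are not matched for strand. Pancreatic islet hormone genes, which the label does not predict, held 593 sites, 64.8% of them called in both KO libraries. B2m and the heavy chain genes are active in most nucleated cells. Which cells' RNA gave the class I sites was not tested. On ERCC spike-ins, synthetic RNAs added as controls, the table had 1286 sites; their median level was 0.5, and 24.3% of them were called in both libraries.

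The sequence at the sites decides what a level means, so it was read first wherever the reference allowed. RefSeq windows of 300 bases around a gene's start, 250 before it and 50 after it, matched 9 of the 10 genes. Listed positions fell in the windows of H2-D1 and Tapbp. In the Tapbp window there were 2, at 33919233 and 33919235, both labelled with the neighbouring gene Zbtb22 and both at a reference guanine. In addition, 1 Tapbp site fell in the window of Gm19412, a gene annotated on the opposite strand. The H2-D1 window is shown because it holds 10 listed positions of the plus strand, marked by capitals (GRCm38, chr17:35262844-35263143, plus strand, 5′ to 3′).
H2-D1 window: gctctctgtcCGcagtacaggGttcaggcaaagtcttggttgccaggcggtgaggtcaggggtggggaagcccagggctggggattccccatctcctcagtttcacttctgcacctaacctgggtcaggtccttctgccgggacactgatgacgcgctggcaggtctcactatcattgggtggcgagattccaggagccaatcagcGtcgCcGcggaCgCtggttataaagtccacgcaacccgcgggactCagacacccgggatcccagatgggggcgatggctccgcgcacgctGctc

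Of these 10 positions, 5 were a cytosine in the reference and 5 a guanine. Only 2 of them carried the H2-D1 label, and the other 8 lay before the annotated start and carried none. At position 35263095 on chromosome 17, 1 base after the RefSeq start coordinate and a reference cytosine, 9 of 12 reads used were unconverted (level 0.75, Wilson 95% interval 0.468 to 0.911) out of 31 covering reads. The site at 35263140, a reference guanine 46 bases from the start coordinate, had the higher level and was called in both KO libraries, at 0.888 and 0.926 (mean 0.907 ± 0.0269, SD, n = 2). A level at a reference guanine on the plus strand is not a fraction of unconverted cytosines of the reference sequence. Why such positions were listed was not tested.

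The Tapbp site is shown with 30 bases on each side, its capital marking the listed position (GRCm38, chr17:33920455-33920515, plus strand).
Tapbp site: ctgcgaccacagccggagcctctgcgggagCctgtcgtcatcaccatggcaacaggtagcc

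This position, 33920485 on chromosome 17, was a reference cytosine. Its levels were 0.714 and 0.918 in the KO libraries (mean 0.816 ± 0.144, SD, n = 2), at a mean of 35 covering reads. Among the 483 class I sites these 3 were the only ones inside any RefSeq window, and the reference base at the other sites was not read here.

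The same reading was made for every listed position in a RefSeq window. Of 5942 plus-strand sites, 51.9% stood at a reference cytosine (exact 95% interval 50.6 to 53.2), 30.01% at a guanine and 18.1% at an adenine, and 0 at a thymine. All window positions together held 26.7% cytosine and 23.3% thymine. The cytosine share was 68.6% among 847 sites called in both KO libraries and 49.1% among 5095 sites called in 1 library. It was 62.3% of 2209 sites with 20 or more covering reads, but 37.5% of the 128 sites with 50 or more. Of 144 minus-strand sites, 90.3% stood at a guanine of the plus strand, which is a cytosine on their own strand. The windows lie at gene starts, and shares inside gene bodies were not measured here.

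**Figure D1:**
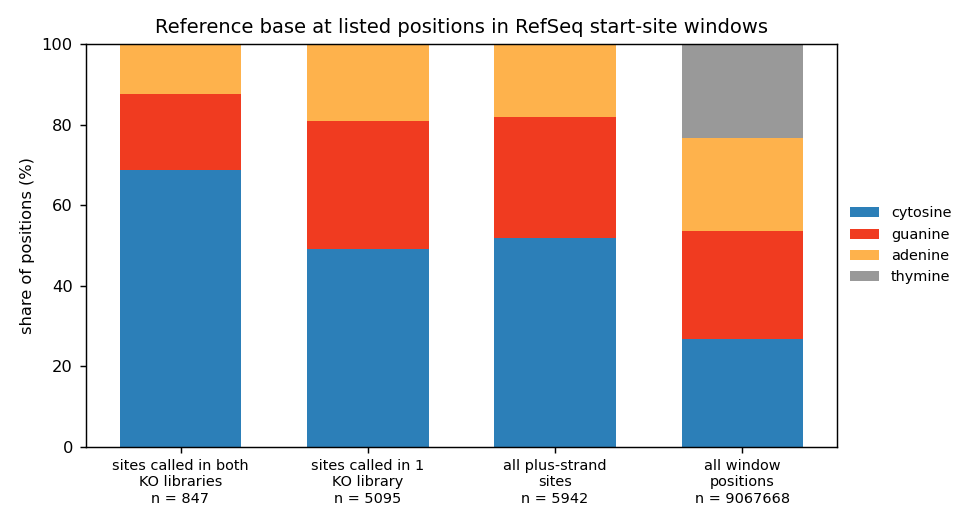
Share of reference bases (%, stacked bars from 0 to 100) at plus-strand positions listed in the Tet2 KO table that fall in RefSeq windows around gene starts, for sites called in both KO libraries, sites called in 1 library, all plus-strand sites, and all positions of the windows. Cytosine made up 68.6%, 49.1% and 51.9% of the 3 site groups and 26.7% of all window positions.

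Similarity between heavy chain genes bears on where a read is placed, and it was measured here at gene starts only. Of the 300 bases of a window, 250 lie before the start. Similarity inside the gene bodies, where most class I sites lie, was not measured. The windows of H2-K1, H2-D1, H2-Q4, H2-Q6 and H2-Q7 were 77.9% to 97.3% identical in the 10 pairs, over 238 to 301 aligned columns. H2-Q6 and H2-Q7 are shown because they were the most alike, at 97.3% over 261 columns; capitals mark their longest shared stretch of 67 bases (GRCm38, chr17:35424600-35424899 and chr17:35438905-35439204, both plus strand).
H2-Q6 window: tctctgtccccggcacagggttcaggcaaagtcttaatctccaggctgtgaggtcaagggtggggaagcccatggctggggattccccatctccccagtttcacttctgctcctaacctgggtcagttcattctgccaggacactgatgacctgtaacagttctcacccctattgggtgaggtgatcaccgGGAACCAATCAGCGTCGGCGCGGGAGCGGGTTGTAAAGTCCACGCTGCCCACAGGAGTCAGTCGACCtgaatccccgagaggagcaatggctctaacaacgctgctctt
H2-Q7 window: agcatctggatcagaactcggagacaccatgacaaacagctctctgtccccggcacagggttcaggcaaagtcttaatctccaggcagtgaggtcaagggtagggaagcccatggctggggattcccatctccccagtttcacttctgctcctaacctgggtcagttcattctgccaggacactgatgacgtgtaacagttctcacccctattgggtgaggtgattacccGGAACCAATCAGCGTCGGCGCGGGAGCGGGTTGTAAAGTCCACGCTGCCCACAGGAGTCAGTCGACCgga

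With cytosine read as thymine, as after full conversion, the longest shared stretch in these 10 pairs ran from 24 to 68 bases. In pairs with B2m, Tap1 or Tapbp it ran from 10 to 18 bases. The H2-T23 window aligned with the others over at most 18 columns, so no identity is given for it. At the 5 listed guanines of the H2-D1 window, the aligned base of the other heavy chain windows was a cytosine in 2 of 18 cases, both at position 35262855. The sources used here give neither the read length nor the treatment of reads that fit several places, and whether the levels of heavy chain genes mix reads of several copies was not tested.

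All class I sites were on the plus strand, as were 502191 of the 506952 sites listed in all. The 7 genes that RefSeq places on the plus strand all had sites, and Tap2, which has no entry in the window table, had sites on that strand too. H2-K1 (chromosome 17, 33996012 to 34000619) and H2-T23 (36029977 to 36032701), on the minus strand, had 0 sites under their labels and 0 unlabelled ones within 2000 bases. Over all minus-strand coding genes 18.5% had a site, beside 51.4% of plus-strand ones. H2-K1, like H2-D1 a classical heavy chain gene, thus shared its count of 0 with most minus-strand genes.

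Over the 483 sites the median level was 0.545 (quartiles 0.38 and 0.735), against 0.531 (0.371 and 0.7) over all 502191 plus-strand sites. Both KO libraries called 74 of them, or 15.3% (exact 95% interval 12.2 to 18.8), against 14.3% of all plus-strand sites. At 19 of the 483 sites every read used was unconverted, against 19997 of the 502191 plus-strand sites. Median coverage was 16 reads, against 17, and at sites called in 1 library a median of 12 reads entered the level. In level, replication and depth the class I sites thus lay near the plus-strand sites as a whole; these differences were not tested, since sites of a gene share libraries and reads.

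**Figure D2:**
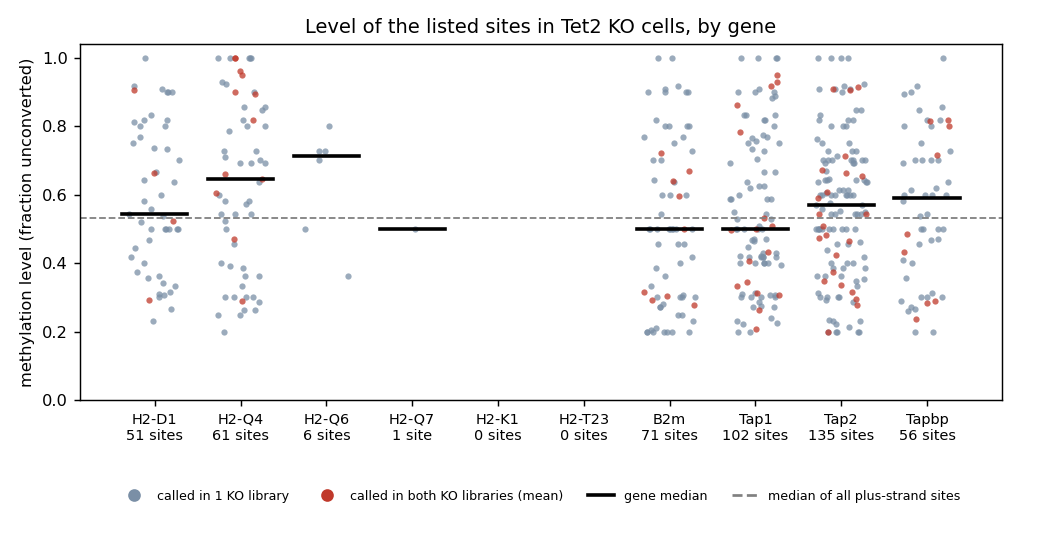
Methylation level (fraction of reads used that were unconverted) of each listed site in Tet2 KO cells, by gene; blue points were called in 1 KO library, red points are means of both, black lines are gene medians and the dashed line is the median of all plus-strand sites, 0.531. The H2-Q4 median, 0.646, lies highest of the 6 genes with over 50 sites, though not with labels of 1 gene or 20 or more reads used, and H2-K1 and H2-T23 have 0 sites.

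Among the heavy chain genes, H2-Q4 (chromosome 17, 35379617 to 35384674) had the most sites, 61, and every label named H2-Q4 alone. Its median level was 0.646 (quartiles 0.393 and 0.857), above the medians of the other 5 genes with over 50 sites, which ran from 0.5 to 0.592. It was not the highest with labels of 1 gene (H2-Q4 0.646, H2-D1 0.649) or with 20 or more reads used (H2-Q4 0.497, Tap2 0.5505). At 7 of its sites the level was 1, and 12 sites were called in both KO libraries. H2-Q4 belongs to the Qa group of heavy chain genes, which vary less between mouse strains than the classical ones.

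A group of high levels stood near the 5′ end of H2-Q4 and held 3 of its 7 sites at level 1; the other 4 lay between 35381861 and 35384089. Between 35379827 and 35379931, 210 bases or more after the start coordinate, 8 sites had a median level of 0.956 and ran from 0.7 to 1. At 35379832, 16 of 16 reads used were unconverted (Wilson interval 0.806 to 1), out of 47 covering reads. The site at 35379834 had levels of 0.924 and 1 in the KO libraries (mean 0.962 ± 0.0537, SD, n = 2), and the one at 35379905 had 1 in both. At the 4 of these sites called in 1 library, at most 50% of the covering reads entered the level. The sites at 35379834 and 35379905, called in both libraries, also had few unconverted reads for such levels. Their means were 12 unconverted at 47 covering reads and 11 at 24. The sources used here do not say what set the other reads apart.

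Elsewhere in H2-Q4 the levels spread more widely. Between 35380124 and 35380632, 23 sites ran from 0.2 to 0.9. The most deeply covered H2-Q4 site, at 35380571, kept 31 unconverted of 54 reads used (level 0.574, Wilson interval 0.442 to 0.697), out of 66 covering. At 35380148 the KO libraries differed by more than at any other class I site, with levels of 0.364 and 0.846 (mean 0.605 ± 0.341, SD, n = 2).

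H2-D1 (35263094 to 35267497), the classical heavy chain gene on the plus strand, had 51 sites. Of these, 37 carried the label of H2-L beside that of H2-D1, and 14 that of H2-D1 alone. H2-L is a further classical heavy chain gene that some mouse haplotypes hold next to H2-D1. The shared sites lay from 35263140 to 35266683. The others lay at 35266755 or later, except the one at 35263095, so the split by label is also one by position. The median level was 0.522 at the shared sites and 0.649 at the others, and 0.545 over all 51. At the 6 sites with 50 or more covering reads it was 0.3295. H2-D1 had the smallest share of calls in both KO libraries of the 6 genes with over 50 sites, 4 of 51 or 7.84% (exact interval 2.18 to 18.9); the interval reaches past the 14.3% of all plus-strand sites.

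Among H2-D1 sites with 20 or more covering reads the highest, at 35264620, kept 10 of 11 reads used (level 0.909, Wilson interval 0.623 to 0.984). The deepest, at 35267059, had 171 covering reads and kept 24 of 78 used (level 0.308, interval 0.216 to 0.417). The site called in both libraries with the most reads was the one at the reference guanine 35263140, described above. The intervals of the high and the deep site do not overlap; both sites were picked for being extreme, which the intervals do not allow for.

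H2-Q6 and H2-Q7, whose products are among the Qa-2 antigens, had 6 and 1 sites, and each label also named another gene, H2-Q8 beside H2-Q6 and H2-Q9 beside H2-Q7. The H2-Q6 sites formed 2 groups of 3. At 35425205, 35425208 and 35425216 the levels were 0.7, 0.727 and 0.727. At 35425727, 35425732 and 35425739 they were 0.5, 0.8 and 0.364. The H2-Q7 site, at 35440119, kept 5 of 10 reads (Wilson interval 0.237 to 0.763). All 7 sites were called in 1 KO library, at 10 to 14 covering reads.

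B2m (chromosome 2, 122147687 to 122153082), which encodes the light chain of every class I molecule, had 71 sites, 13.2 per kb of gene span. The median over plus-strand coding genes with a site was 71 sites (quartiles 37 and 117) and 2.999 per kb (1.32 and 6.54). The span is the genomic distance from the start to the end coordinate. Of the other class I genes, H2-Q4 had 12.1 per kb, H2-D1 11.6, Tap2 11.4, Tap1 10.5, Tapbp 5.71, H2-Q6 1.15 and H2-Q7 0.216. The B2m median level was 0.5 (quartiles 0.3 and 0.712), and 9 sites were called in both KO libraries. Neighbouring sites were common, with 83.1% of B2m sites having another within 10 bases, against 70.6% of all plus-strand sites.

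The level of B2m sites differed with their coverage. At 63 sites with under 20 covering reads the median was 0.5, and at the 8 sites with 20 or more it was 0.280. The deepest site of all 10 genes, at 122150902, had 172 covering reads and kept 23 of 109 used (level 0.211, Wilson interval 0.145 to 0.297). The deepest B2m site called in both libraries, at 122147788, had levels of 0.292 and 0.296 (mean 0.294 ± 0.00283, SD, n = 2). The highest at 20 or more covering reads, at 122151057, kept 10 of 10 reads used out of 27 (interval 0.722 to 1).

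B2m sites came in tight groups. The largest held 23 sites within 147 bases, from 122151825 to 122151971, with a median coverage of 13 reads and levels from 0.2 to 1. Another 8 sites stood within 21 bases, from 122149875 to 122149895, all called in 1 library. The last decile of the gene span held 5 of the 71 sites (7.04%). In plus-strand coding genes it held 29.1% of 371221 sites with a label of 1 gene. That share was 9.80% in H2-D1 and 9.84% in H2-Q4, and 27.5% in Tap1, 21.5% in Tap2 and 23.2% in Tapbp. The H2-D1 share counts all 51 of its sites, those also labelled H2-L included. Its 5 sites in the last decile were all among the 14 labelled H2-D1 alone.

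**Figure D3:**
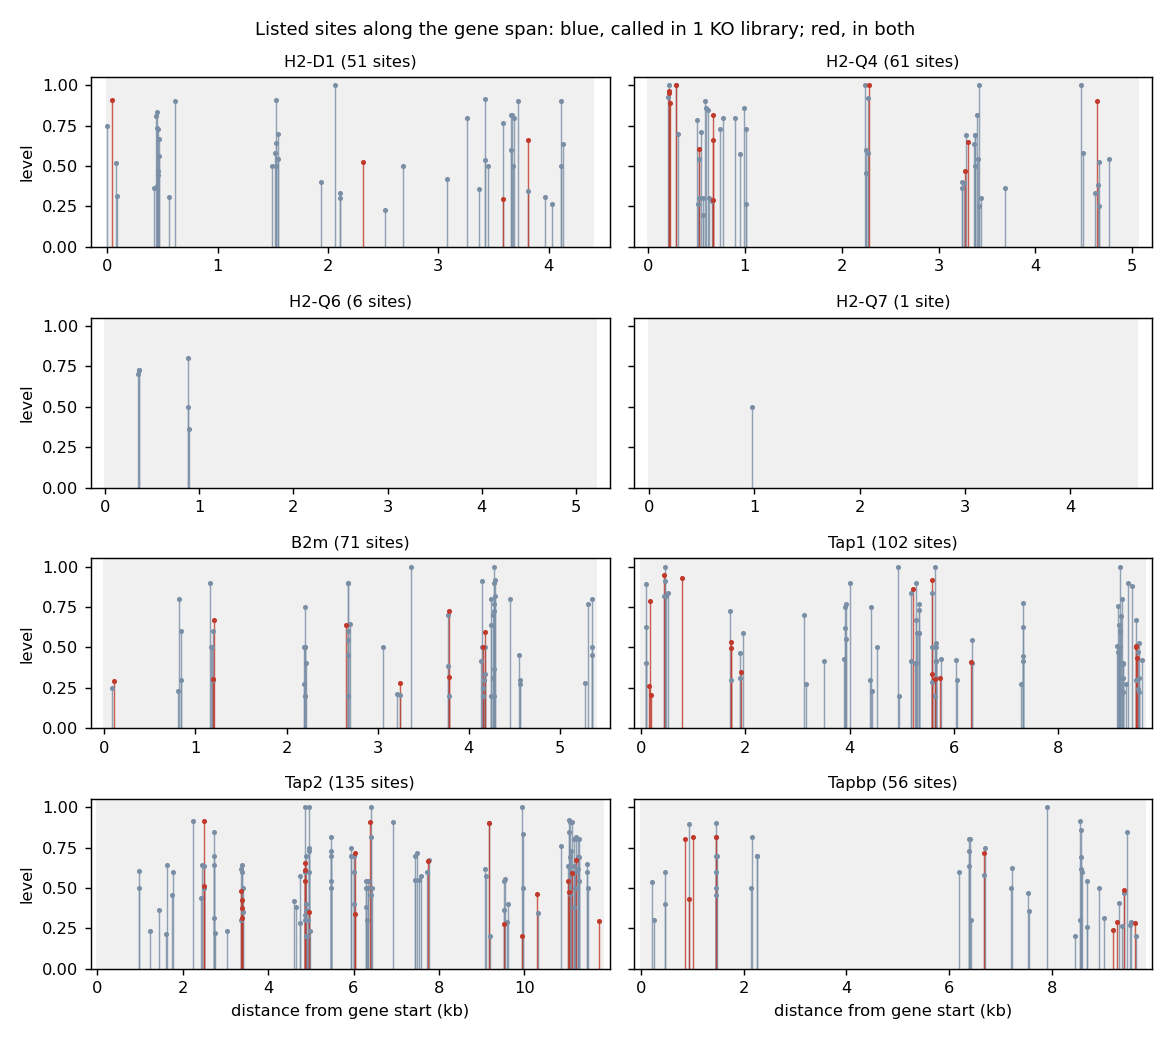
Methylation level of each listed site (vertical axis, 0 to 1) against its distance in kb from the RefSeq start coordinate, for the 8 class I genes with sites; grey marks the gene span, blue lines sites called in 1 Tet2 KO library and red lines sites called in both. Sites stand in groups in every gene with over 50 of them, such as the 23 B2m sites within 147 bases.

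Tap1 and Tap2 encode the subunits of the peptide transporter and lie close together on chromosome 17. Tap2 (34204479 to 34216321) had the most sites of the 10 genes, 135, and Tap1 (34187556 to 34197225) had 102. Their median levels were 0.571 and 0.5. In Tap2 23 sites (17.04%) were called in both KO libraries, and in Tap1 17 (16.7%).

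Tap1 was the best covered of the genes, with a median of 26 covering reads. Its deepest site, at 34196861, kept 19 of 69 reads used (level 0.275, Wilson interval 0.184 to 0.390), out of 85. The deepest called in both libraries, at 34189478, had levels of 0.322 and 0.368 (mean 0.345 ± 0.0325, SD, n = 2). Among Tap1 sites with 20 or more covering reads the highest, at 34188344, had 0.856 and 1 (mean 0.928 ± 0.102, SD, n = 2). The gap between these sites was larger than the spread between the libraries, with the site at 34188344 picked for its level.

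At Tap1, 22 of 85 sites called in 1 library (25.9%) used at most 50% of their covering reads, and at H2-Q4 11 of 49 (22.4%). In Tap2 it was 3 of 112 (2.68%) and in B2m 2 of 62 (3.23%), against 11.6% of all plus-strand sites called in 1 library. The genes thus differed in how often few of the covering reads entered the level. The sources used here do not say why the other reads did not enter it, and the cause was not tested. The 3′ end of Tap1 held its largest group, 28 sites between 34196696 and 34197169, with a median level of 0.486.

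The deepest Tap2 sites had intermediate levels. At 34214027, 59 of 106 reads used were unconverted (level 0.557, Wilson interval 0.462 to 0.648), out of 128 covering. The deepest site called in both libraries, at 34214780, had levels of 0.444 and 0.486 (mean 0.465 ± 0.0297, SD, n = 2). The highest at 20 or more covering reads, at 34214454, kept 10 of 12 (0.833, interval 0.552 to 0.953). Most Tap2 sites were shallow, with a median of 15 covering reads, and 35 of the 135 stood directly beside another listed base.

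Tapbp (33919478 to 33929290), which encodes tapasin, had 56 sites with a median level of 0.592, or 5.71 per kb. At the 6 sites with 50 or more covering reads the Tapbp median was 0.282. The highest at 20 or more covering reads, at 33920404, kept 25 of 28 reads used (0.893, Wilson interval 0.728 to 0.963). The deepest, at 33928785, kept 38 of 93 (0.409, interval 0.314 to 0.510), out of 102 covering. The deepest called in both, at 33928753, had levels of 0.249 and 0.333 (mean 0.291 ± 0.0594, SD, n = 2).

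Groups of Tapbp sites differed in level and coverage. A group of 8 sites within 22 bases, from 33920929 to 33920950, had a median level of 0.7 at a median of 12 covering reads. Farther along, 9 sites from 33927925 to 33928159 had a median of 0.6 at 15 covering reads. The group nearest the 3′ end, 11 sites from 33928680 to 33929118, ran from 0.2 to 0.848 with a median of 0.29, at a median of 49 covering reads. Not every well-covered group was low. The 4 sites from 33920322 to 33920485 had a median of 0.808 at 34.5 covering reads. The 3 sites from 33926152 to 33926179 had 0.715 at 39. These groups were picked after their values were seen, and the part of coverage in their difference was not tested.

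**Figure D4:**
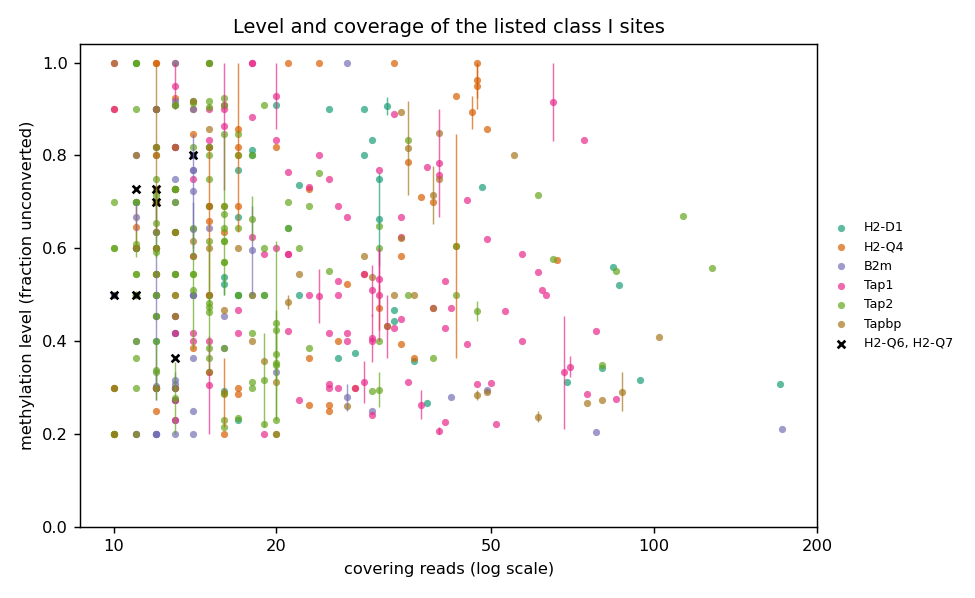
Methylation level of each listed class I site in Tet2 KO cells against its covering reads (log scale), coloured by gene; points of sites called in both KO libraries are means and their vertical lines join the levels of both libraries. Levels fill the range from 0.2 to 1 at low coverage, and at 50 or more covering reads 36 sites remain with a median of 0.4045.

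Over the class I sites together the median level was lower at higher coverage. The median was 0.6 at 298 sites with 10 to 19 covering reads, 0.5 at 149 sites with 20 to 49, and 0.4045 at 36 sites with 50 or more. Over all plus-strand sites the same classes had 0.545, 0.513 and 0.438. Split at 20 covering reads, not every gene shared this: H2-Q4 had a median of 0.6525 at 20 or more covering reads and 0.646 under 20, and H2-D1 had 0.54 and 0.545. At the 74 sites called in both libraries the median difference between the libraries was 0.098, and 17 of them differed by more than 0.2.

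Of 31 other genes of the class I pathway 20 had a site, beside 34.2% of all protein-coding genes. All 11 that RefSeq places on the plus strand had at least 1 (51.4% of all plus-strand genes), as did 4 of 9 on the minus strand (18.5% of all minus-strand genes). Those 4 had at most 3 sites each. The 5 with the most sites were Nlrc5, the transactivator of class I genes, with 234 sites (median level 0.547), Ganab, a glucosidase subunit that trims glycans of new glycoproteins, with 111 (0.583), the interferon-induced transcription factor gene Irf1 with 80 (0.535), the peptide-trimming aminopeptidase gene Erap1 with 76 (0.434) and the chaperone gene Hspa5 with 58 (0.477). The 795 sites of the list had a median level of 0.5, and 15.8% of them were called in both KO libraries. Of the 20 genes with a site, H2-L, H2-Q8 and H2-Q9 had only sites whose labels also name H2-D1, H2-Q6 or H2-Q7. Those sites, 37, 6 and 1 of them, are among the 795 and were also counted as class I sites above.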

How the data were processed

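Cytosine methylation of poly(A) RNA was measured by bisulfite sequencing in 2 Tet2 KO and 2 WT libraries, made with a stranded kit per the labels' protocols. Groups came from the titles. The submitters' processing notes name the build mm10, and the sources used here name neither aligner nor caller. Library totals were not used here.

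The deposited read numbers per site are treated as a score: at sites with 1 call they are that library's reads, and elsewhere a mean over both KO libraries that the authors rounded. The deposited level is a fraction: unconverted reads divided by reads used, as a mean of the replicates with a call. The deposited combined p-value of the methylation state reached 0.000114 at most. There were 0 columns of other series.

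Reads used were recovered as unconverted reads over level, within 0.0005 of the level. The deposited SD (a score column) was taken to be the population SD: mean plus SD then exceeded 1 at 0 of 72227 sites and equalled 1 at 4803, against 1199 under the other divisor (tolerance 0.0011). Printed SDs are sample SDs, and the levels of the 2 libraries are the mean minus and plus the deposited SD; which library is which is not given. Wilson (levels) and Clopper-Pearson (shares) intervals at 95% cover counting error only, since reads without molecular identifiers are not independent molecules.

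Genes matched by label. Spans, strands and sequences are RefSeq's, GRCm38.p6. Windows were aligned with Biopython 1.88 (end gaps free), and other values came from pandas 2.3.3 and SciPy 1.17.1. The recovery of reads and the intervals were tested on simulated data. No test between groups was made. Named were all 10 genes and, for each, the site of highest level among those with 20 or more covering reads, the deepest site and the deepest called in both; every site of a gene with at most 3; and the 5 other pathway genes with the most sites. Groups of sites (gaps of at most 150 bases), H2-Q6 sites, sites in RefSeq windows and the site with the widest replicate difference were chosen after their values were seen. The genes and lists were chosen with earlier results of these data known. Alternatives were other coverage minimums, sites called in both libraries, 20 or more reads used, labels of 1 gene, sites outside runs and a state p of at most 1e-06.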

Additional observations from a re-analysis of the deposited data

Results flagged for a closer look

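Within 2000 bases of the 10 genes, 26 sites carried no gene label and entered none of the counts by gene label above. They lie outside the gene-labelled sites, and WT was not measured beside them. Of these, 11 lay after the annotated end of B2m, between 122153486 and 122154700 on chromosome 2, with a median level of 0.583 and 0 calls in both KO libraries. Before the start of H2-D1 there were 10, with a median of 0.565 and 4 calls in both libraries. Of those 10, 8 are the unlabelled positions of the H2-D1 window described above. Inside the span of H2-Q6 there were 4, and after the end of H2-Q4 there was 1.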

How the results depend on the processing

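The number of class I genes with a site was 8, beside 34.2% of all protein-coding genes. It was between 6 and 8 under the alternatives, for which the share of all genes was not computed. H2-Q6 and H2-Q7 dropped out with 20 or more covering reads, calls in both libraries, 20 reads used or a label of 1 gene. The number of sites, 483, became 185 at 20 or more covering reads, 115 at 30, 36 at 50, 74 with calls in both KO libraries, 87 with 20 or more reads used and 146 with no other site within 10 bases, since each setting keeps fewer sites. The median level, 0.545, became 0.4045 at 50 or more covering reads and 0.471 with 20 or more reads used; other settings gave 0.5 to 0.6, within the median replicate SD of 0.0693. The share called in both libraries, 15.3%, became 20% at 20 or more covering reads and 24.3% at 30. Over all plus-strand sites these settings gave 18.4% and 18.8%. At 50 or more covering reads the share was 16.7%, and with 20 or more reads used 14.9% (17.2% and 13.0% of all plus-strand sites). The cause of these differences was not tested. Of 51 medians per gene under an alternative, 22 moved by more than that SD. At 50 or more covering reads the median became 0.208 for B2m (2 sites), 0.282 for Tapbp (6 sites) and 0.3295 for H2-D1 (6 sites). In the same setting it was 0.422 for Tap1 (15 sites), 0.5665 for Tap2 (6 sites) and 0.574 for H2-Q4 (1 site). The H2-Q4 median became 0.856 among sites called in both libraries and 0.497 with 20 or more reads used. The H2-D1 median became 0.649 with a label of 1 gene. No replicate could be left out. No paired analysis was possible because the table has no column of a single library and no WT column. Depth limits the many sites with few reads, among them every H2-Q6 and H2-Q7 site, with at most 14 covering reads.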

Other observations

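MHC class II genes, whose products present peptides from outside the cell to CD4+ T cells, had sites in 8 of 11 members, beside 34.2% of all protein-coding genes, and in 5 of 7 members on the plus strand, beside 51.4% of plus-strand genes. Their 255 sites had a median level of 0.579, against 0.545 for the class I sites, and 12.5% were called in both KO libraries; the difference was not tested. At reference cytosines of the RefSeq windows, plus-strand sites had a median level of 0.7 and 18.8% were called in both KO libraries. At guanines the values were 0.667 and 9.03%, and at adenines 0.6 and 9.77%.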
